A study of Mus musculus with 33 samples.

Results

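The 37 aminoacyl-tRNA synthetase genes of the deposited expression table were examined in mouse livers and liver tumours in which MYC, stabilised beta-catenin or both had been switched on. Members were taken by gene symbol, as every symbol made of 1 capital letter followed by ars with an optional 1 or 2, together with Eprs, Farsa and Farsb. This gave 37 of 21671 genes. Of these, 20 were counted as cytosolic and 17, with symbols ending in 2, as mitochondrial. Gars and Kars were counted as cytosolic and also serve mitochondria. All 37 passed the filter on low values in both arms of the study (RPKM of at least 1 in at least 3 libraries), so that none was lost to it.

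Aminoacyl-tRNA synthetases join each amino acid to its transfer RNA, the step that supplies the ribosome with charged tRNA. The cytosol and the mitochondrion use largely separate sets of enzymes, and both sets are encoded in the nucleus. In the liver, an organ that secretes most plasma proteins, cytosolic synthetases are among the abundant housekeeping transcripts. MYC is a transcription factor known for raising genes of ribosome production and protein synthesis. Beta-catenin is the effector of the Wnt pathway.

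Total RNA was sequenced from 33 samples of strain C57BL/6. In the first arm, mice aged 6 to 8 weeks received AAV8-TBG-CRE, a virus that delivers Cre recombinase under the hepatocyte promoter TBG, and whole livers were taken on day 4. The genotypes in that arm were WT, beta-cat Ex3 (here Ex3, an allele of beta-catenin that loses exon 3, and with it the sites for its degradation, once Cre acts), R26-lslMYC (here MYC, a Cre-activated MYC at the Rosa26 locus) and R26-lslMYC/beta-cat Ex3 (here MYC+Ex3), with 5 livers in each group. All 4 groups, WT included, received the virus. In the second arm, liver nodules came from mice labelled Albeta-CreERT2/R26-lslMYC (3 MYC tumours) and Albeta-CreERT2/R26-lslMYC/beta-catEx3 (3 MYC+Ex3 tumours), for which no age or treatment is labelled. Their comparison group was 7 WT livers taken 4 days after an intraperitoneal injection of 4-OHT, the active form of tamoxifen. The labels call these livers WT and do not say whether they carry CreERT2. The tumours therefore differ from these livers in genotype, in labelled treatment, in time and in being nodules. Their animal numbers are also of another form, without the S prefix that the numbers of these livers carry. These differences cannot be told apart here. The labels carry separate animal numbers for the samples.

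Reads assigned to genes ran from 3.75 to 7.31 M per library in the first arm and from 6.65 to 9.82 M in the second. Expression is given as RPKM, a read number scaled to gene length and to the reads of the library. The 2 arms are on different RPKM scales, so levels are compared within an arm only. The smallest number of reads behind a member was 39 (Sars2, an Ex3 liver) in the first arm and 88 (Pars2, a 4-OHT WT liver) in the second. Axin2, a Wnt target gene, had an RPKM of 10.6 to 24.9 in Ex3 livers and 7.49 to 24.3 in MYC+Ex3 livers, against 2.73 to 4.3 in WT and 0.513 to 6.99 in MYC livers. Mouse Myc had 0.748 to 7.72 RPKM over the day 4 livers, and whether reads of the transgene are counted there is not given in the sources used here. Among the day 4 livers, 1 of 5 MYC libraries and 3 of 5 in each of the other groups carried epidermal keratin reads (summed RPKM of Krt5, Krt14 and Krt17 of 3.95 to 23.8, against at most 0.398 in the others). The labels name no batch that matches this split, which comes from the values and is used to recompute results within each set. In Ex3 livers the keratin-free libraries were also the deeper ones (5.38 and 6.05 M reads, against 4.22 to 4.83 M). In MYC+Ex3 livers they had 6.57 and 7.31 M, against 3.75 to 5.1 M. The animal numbers of these keratin-free libraries share leading digits that no keratin-bearing library has. Keratin, depth and animal series thus cannot be told apart in those groups. Males, read from Xist and Ddx3y, made up 2 of 5 WT, 3 of 5 MYC, 3 of 5 Ex3 and 4 of 5 MYC+Ex3 day 4 livers. In the second arm they made up 4 of 7 livers, all 3 MYC tumours and 2 of the 3 tumours that also carried Ex3.

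Promoter windows were available for 26 of the 37 members in a RefSeq table of build GRCm38.p6, as 27 windows of 300 bases from 250 before to 50 after a gene's start. Among the cytosolic genes Vars, Cars, Hars, Lars, Mars, Nars, Rars and Wars had no window and were not searched. The shares below thus do not cover the whole family. In 22 of the 27 windows, bases after the start matched a transcript of the gene. All 27 windows were searched on both strands for 4 motifs. The E-box CACGTG, the letters bound by MYC with MAX, was in 5 of 27 windows (Aars, Ears2, Farsb, Iars and Tars), or 18.5%, against 8.17% of the 19108 windows of all genes in the table. The letters TGATGNAA, the amino acid response element read by ATF4, were also in 5 windows (Aars, Gars, Iars, Tars and Yars), or 18.5% against 3.27%. The ETS letters CCGGAAGT were in 2 windows (Farsa and Rars2), or 7.41% against 5.35%. The core palindrome of the NRF1 motif was in none of the 27, against 1.42% of all windows. In the sequences printed here no match overlaps another. The 250 bases before the start of 4 genes are shown, because Iars and Gars are members that rose with MYC and Aars and Tars are members that did not. Capitals mark CACGTG and TGATGNAA or its reverse complement. The window of Iars (chr13:49681880-49682129, plus strand) holds CACGTG from 69 bases before the start. Its ATF4 letters are not within the bases shown. That of Gars (chr6:55037751-55038000, plus strand) holds the ATF4 letters from 30 bases before the start. That of Aars (chr8:111033592-111033841, plus strand) holds CACGTG from 146 and the ATF4 letters from 112 bases before the start. That of Tars (chr15:11399659-11399908, minus strand) holds the ATF4 letters from 15 bases before the start, and its CACGTG is not within the bases shown.
Iars: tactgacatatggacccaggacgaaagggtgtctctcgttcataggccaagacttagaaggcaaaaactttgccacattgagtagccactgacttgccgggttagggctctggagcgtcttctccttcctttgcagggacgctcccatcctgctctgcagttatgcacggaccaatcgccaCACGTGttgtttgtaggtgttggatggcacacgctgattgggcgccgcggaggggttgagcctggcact
Gars: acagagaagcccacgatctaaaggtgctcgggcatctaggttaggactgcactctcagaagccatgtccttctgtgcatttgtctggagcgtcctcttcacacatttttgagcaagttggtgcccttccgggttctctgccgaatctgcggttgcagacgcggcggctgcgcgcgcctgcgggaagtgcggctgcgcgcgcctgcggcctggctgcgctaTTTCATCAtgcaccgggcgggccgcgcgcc
Aars: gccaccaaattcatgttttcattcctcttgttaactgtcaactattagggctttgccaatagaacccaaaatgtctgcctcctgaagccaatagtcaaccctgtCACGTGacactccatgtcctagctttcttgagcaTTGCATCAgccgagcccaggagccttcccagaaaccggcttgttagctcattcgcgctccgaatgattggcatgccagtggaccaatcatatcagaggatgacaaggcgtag
Tars: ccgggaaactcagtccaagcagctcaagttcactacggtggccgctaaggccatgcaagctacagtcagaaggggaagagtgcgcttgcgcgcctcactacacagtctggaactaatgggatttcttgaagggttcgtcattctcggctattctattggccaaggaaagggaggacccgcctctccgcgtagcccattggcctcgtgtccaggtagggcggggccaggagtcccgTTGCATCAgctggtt
A match is a description of the letters in a window and not evidence of binding.

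In WT livers the cytosolic enzymes were the more abundant class. The threonyl enzyme gene Tars was highest in both kinds of WT liver, at 99.7 ± 22.9 RPKM (SD, n = 5) in day 4 WT livers and 18.2 ± 4.72 RPKM (SD, n = 7) in 4-OHT WT livers. In day 4 WT livers it was followed by the asparaginyl enzyme gene Nars (71.5 RPKM), the aspartyl gene Dars (61.7 RPKM), the alanyl gene Aars (59.9 RPKM) and Eprs, whose product charges both glutamate and proline (51.1 RPKM). Dars and Aars lay closer together than their spread over libraries, as Aars alone ran from 46.7 to 66.6 RPKM. The 10 highest members were cytosolic in both kinds of WT liver. Of the 10 lowest, 8 were mitochondrial in day 4 WT livers, the exceptions being Farsa (9.02 RPKM) and Vars (9 RPKM), and 10 in 4-OHT WT livers. The lowest of all were the mitochondrial seryl gene Sars2 in day 4 WT livers (3.57 ± 1.14 RPKM, SD, n = 5) and the mitochondrial tryptophanyl gene Wars2 in 4-OHT WT livers (1.32 ± 0.145 RPKM, SD, n = 7). Of 17 pairs of a mitochondrial enzyme and the cytosolic enzyme for the same amino acid, the cytosolic gene had the higher mean RPKM in 14 in day 4 WT livers and in 15 in 4-OHT WT livers. The exceptions in day 4 WT livers were Farsa with Fars2, Iars with Iars2 and Yars with Yars2. In these pairs, here and below, Eprs stands with Ears2 and again with Pars2. Fars2 was paired with Farsa and not with Farsb.

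The question of the Ex3 group was what stabilised beta-catenin alone does to these genes in 4 days. By limma on log2(RPKM + 1), with Benjamini-Hochberg adjustment over the 13688 genes tested, 0 of 37 members were called at an adjusted p under 0.05, where 0.132% of all genes were called. The median change was 0.03 for cytosolic and 0.01 for mitochondrial members on the log2 scale, with SE of single genes between 0.0963 and 0.3. At an unadjusted p under 0.05, 2 members differed, Aars and Tars, where 5.44% of all genes did. Aars was the only member whose groups did not overlap, higher in Ex3, where 1.03% of all genes were in that position and 0.563% in the opposite one. It had RPKM of 64.9, 46.7, 61.5, 66.6 and 59.9 in the 5 WT livers and 85.8, 79.5, 74.8, 81.6 and 78.8 in the 5 Ex3 livers. All 5 Ex3 livers lay above all 5 WT livers, and the change was 0.42 ± 0.126 (SE), with a limma adjusted p of 0.456. The authors' deposited table gives Aars a log2 fold change of 0.37 in this comparison, with an adjusted p of 0.0158, and calls no other member. Aars is described here and further on because its values stood apart, which makes it a gene chosen after its values were seen.

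With MYC alone, synthetase genes of both compartments rose. Of 37 members 22 were higher and 0 lower by limma, 13 of 20 cytosolic and 9 of 17 mitochondrial, where 16.9% of all genes were called higher and 5.36% lower. The median change was 0.59 for cytosolic and 0.57 for mitochondrial members, beside 0.07 over all genes tested. Without Gars and Kars, 11 of 18 cytosolic members were higher, with a median of 0.50. The cytosolic genes that rose were Eprs, Farsa, Farsb, Gars, Hars, Iars, Kars, Lars, Qars, Rars, Sars, Vars and Wars. The mitochondrial genes that rose included Ears2, Iars2, Mars2, Rars2, Tars2, Vars2, Wars2 and Yars2. In MYC+Ex3 livers against the same WT livers 22 members were again higher and 0 lower, 12 cytosolic and 10 mitochondrial, where 17.9% of all genes were called higher and 6.18% lower. There the medians were 0.53 for cytosolic, 0.61 for mitochondrial and 0.05 for all genes. Leaving out Gars and Kars gave 10 of 18 cytosolic members higher in MYC+Ex3 livers, with a median of 0.50. After each library was rescaled by median ratios, 19 members were higher and 1 lower (Aars) in MYC livers, beside 13.7% and 9.51% of all genes. In MYC+Ex3 livers 21 were then higher and 0 lower, beside 15% and 9.51% of all genes. These 2 comparisons share their WT livers, so their values are set side by side and their likeness is not a result.

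Each class can be followed by its median in each library. The median RPKM over the 20 cytosolic genes was 26.6 ± 2.99 in WT, 28.3 ± 2.4 in Ex3, 42.5 ± 7.53 in MYC and 43 ± 8.49 in MYC+Ex3 livers (SD over libraries, n = 5 each). It ran from 21.7 to 29 in WT and from 33.4 to 50.4 in MYC livers, so that those groups did not overlap. For the 17 mitochondrial genes it was 13.6 ± 1.95 in WT, 12.4 ± 1.98 in Ex3, 17.7 ± 3.12 in MYC and 19.7 ± 3.77 in MYC+Ex3 livers (SD, n = 5 each). The mitochondrial medians overlapped between WT (10.8 to 16.3) and MYC livers (14 to 21.1), and also between WT and MYC+Ex3 livers (16.2 to 24.8). In Ex3 and MYC+Ex3 livers both class medians also split with keratin, depth and animal number. Cytosolic medians of MYC+Ex3 livers were 49.9 and 52 RPKM in keratin-free, against 33.7 to 44.7 in keratin-bearing libraries. Their mitochondrial medians were 22.6 and 24.8, against 16.2 to 18 RPKM. In Ex3 livers the values were 30.3 and 31.4 against 26.2 to 27.3, and 13.8 and 14.5 against 10 to 12.9 RPKM. Cytosolic medians of WT livers overlapped between the sets.

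**Figure D1:**
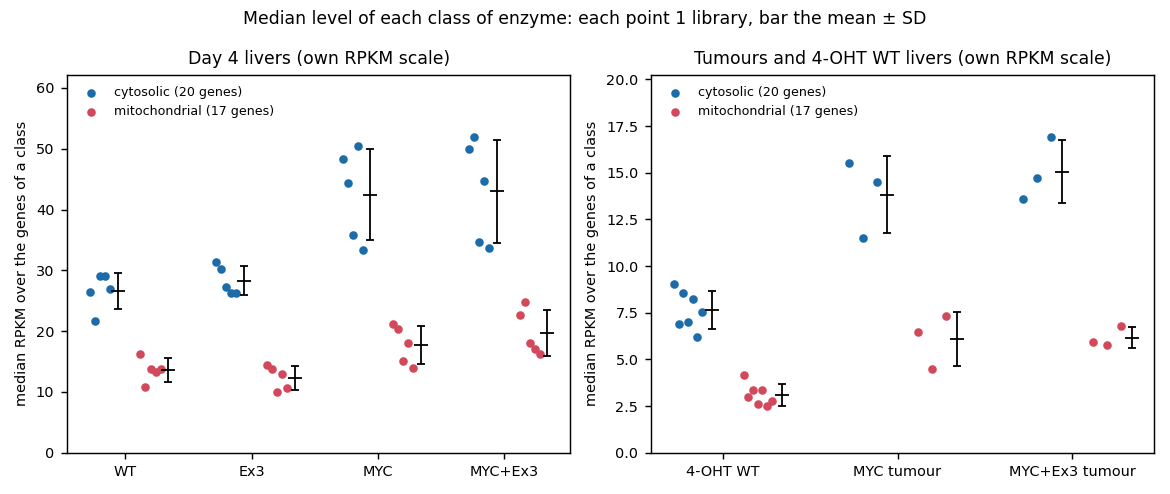
Median RPKM over the 20 cytosolic (blue) and 17 mitochondrial (red) synthetase genes in each library, with the mean ± SD of each group beside its points; left, day 4 livers (n = 5 per group), right, 4-OHT WT livers (n = 7) and tumours (n = 3 each), on their own RPKM scale. The cytosolic medians of MYC and MYC+Ex3 livers (33.4 to 52 RPKM) lie above those of WT livers (21.7 to 29 RPKM), and in the tumours both classes lie above the 4-OHT WT livers.

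Vars, the cytosolic valyl enzyme gene, rose most of all members. Its RPKM was 11.1, 9.27, 8.75, 9.01 and 6.9 in WT livers, 17.9, 14.2, 9.09, 8.54 and 9.06 in Ex3 livers, 52.9, 40.3, 26.4, 34.7 and 31.1 in MYC livers, and 69.3, 70.6, 22, 36 and 21.2 in MYC+Ex3 livers. All MYC and MYC+Ex3 livers lay above all WT and Ex3 livers. The change against WT was 1.90 ± 0.3 in MYC livers and 1.99 ± 0.3 in MYC+Ex3 livers (SE; limma adjusted p = 0.000112 and 5.42e-05). Within the MYC+Ex3 group the 2 keratin-free libraries stood at 69.3 and 70.6 RPKM and the 3 keratin-bearing ones at 21.2 to 36. In the Ex3 group the 2 keratin-free libraries were likewise the higher ones (14.2 and 17.9, against 8.54 to 9.09 RPKM). The level of Vars thus moved with the keratin split inside those groups, where depth and animal number split the same way. In MYC+Ex3 livers the same held for Iars (38.6 and 41 RPKM in keratin-free, 17.3 to 26.5 in keratin-bearing libraries). It also held there for Farsa (24.5 and 27.1, against 15.2 to 19.1 RPKM) and Tars2 (22.6 and 24.8, against 15.1 to 17 RPKM). Mars2 (23.4 and 24.4, against 12.5 to 18.9 RPKM) and Vars2 (23.8 and 26.1, against 8.67 to 10.8 RPKM) split likewise. Some members did not, such as Tars (72.5 and 79.9, against 73.6 to 83.4 RPKM). The split was thus not particular to the genes named here. The rise of Vars over WT was also called within keratin-free libraries alone, at 1.78 in MYC livers (limma adjusted p = 0.00202).

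Among the cytosolic genes Farsa came next in both groups, and Iars after it. Farsa encodes the catalytic subunit of the cytosolic phenylalanyl enzyme and had RPKM of 9.67, 8.66, 11.6, 7.98 and 7.21 in WT, and 21.7, 20.2, 15.1, 19.7 and 15.3 in MYC livers. In MYC+Ex3 livers its RPKM was 24.5, 27.1, 16.4, 19.1 and 15.2. Every MYC and MYC+Ex3 liver exceeded every WT liver, with changes of 0.96 ± 0.174 and 1.08 ± 0.174 (limma adjusted p = 0.000474 and 0.000113). Farsb, which encodes the other subunit of the same enzyme, changed by 0.67 ± 0.143 and 0.64 ± 0.143. Iars, for the isoleucyl enzyme, had RPKM of 11.9, 12.9, 13.7, 15.8 and 14.6 in WT, 30.8, 34.1, 17.8, 23.5 and 22.8 in MYC, and 38.6, 41, 17.3, 26.5 and 19.7 in MYC+Ex3 livers. Its groups did not overlap either, although the lowest MYC+Ex3 liver (17.3) lay close to the highest WT liver (15.8). Its changes were 0.83 ± 0.224 and 0.93 ± 0.224 (limma adjusted p = 0.011 and 0.00441). Within keratin-bearing libraries alone the MYC+Ex3 change of Iars missed the threshold (limma adjusted p = 0.0511).

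Among the mitochondrial enzymes Mars2, the gene for the enzyme that charges the methionine tRNA of the organelle, rose most. Its RPKM was 5.03, 6.54, 6.92, 4.92 and 8.08 in WT livers, 24.6, 15.8, 13.1, 28.6 and 15.9 in MYC livers, and 24.4, 23.4, 17.7, 18.9 and 12.5 in MYC+Ex3 livers. The groups were well apart, and the changes were 1.46 ± 0.2 and 1.47 ± 0.2 (limma adjusted p = 2.79e-05 and 1.8e-05). In Ex3 livers Mars2 was at 4.58 to 6.17 RPKM, which overlapped the WT livers. Tars2, the mitochondrial threonyl enzyme gene, had RPKM of 8.46, 6.64, 11.1, 8.39 and 7.62 in WT, 21, 18.2, 14.7, 17.9 and 13.3 in MYC, and 22.6, 24.8, 15.6, 17 and 15.1 in MYC+Ex3 livers. The highest WT liver (11.1) was below the lowest liver of either MYC group, and the changes were 0.93 ± 0.164 and 1.07 ± 0.164.

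Some members did not move with the rest. Tars, the most abundant member, had RPKM of 110, 61.9, 94.5, 115 and 117 in WT, 94, 89.8, 67.6, 71.2 and 57.1 in Ex3, 89.4, 95.5, 95.5, 94.3 and 58.1 in MYC, and 79.9, 72.5, 83.4, 73.6 and 77.3 in MYC+Ex3 livers. The 4 groups overlapped, and the changes against WT in the MYC and MYC+Ex3 groups were -0.19 ± 0.172 and -0.33 ± 0.172, neither called by limma (adjusted p = 0.47 and 0.175). The authors' deposited table calls Tars lower in MYC+Ex3 livers, with a log2 fold change of -0.43 and an adjusted p of 0.0414. Fars2, the mitochondrial phenylalanyl enzyme gene, had RPKM of 24.3, 27.6, 35.4, 26.8 and 26.8 in WT, 27.4, 32.9, 23.2, 18 and 28.7 in MYC, and 29.6, 26.5, 27.2, 28.1 and 23.7 in MYC+Ex3 livers. Its changes were -0.13 ± 0.134 and -0.05 ± 0.134, so that the 2 phenylalanyl enzymes of the cell differed in direction of estimate, Farsa being called and Fars2 not. In MYC livers the other cytosolic members not called were Aars, Cars, Dars, Mars, Nars and Yars, and the other mitochondrial ones were Aars2, Cars2, Hars2, Lars2, Nars2, Pars2 and Sars2. Their changes ran from -0.32 (Aars) to 0.63 (Sars2, limma adjusted p = 0.0984).

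**Figure D2:**
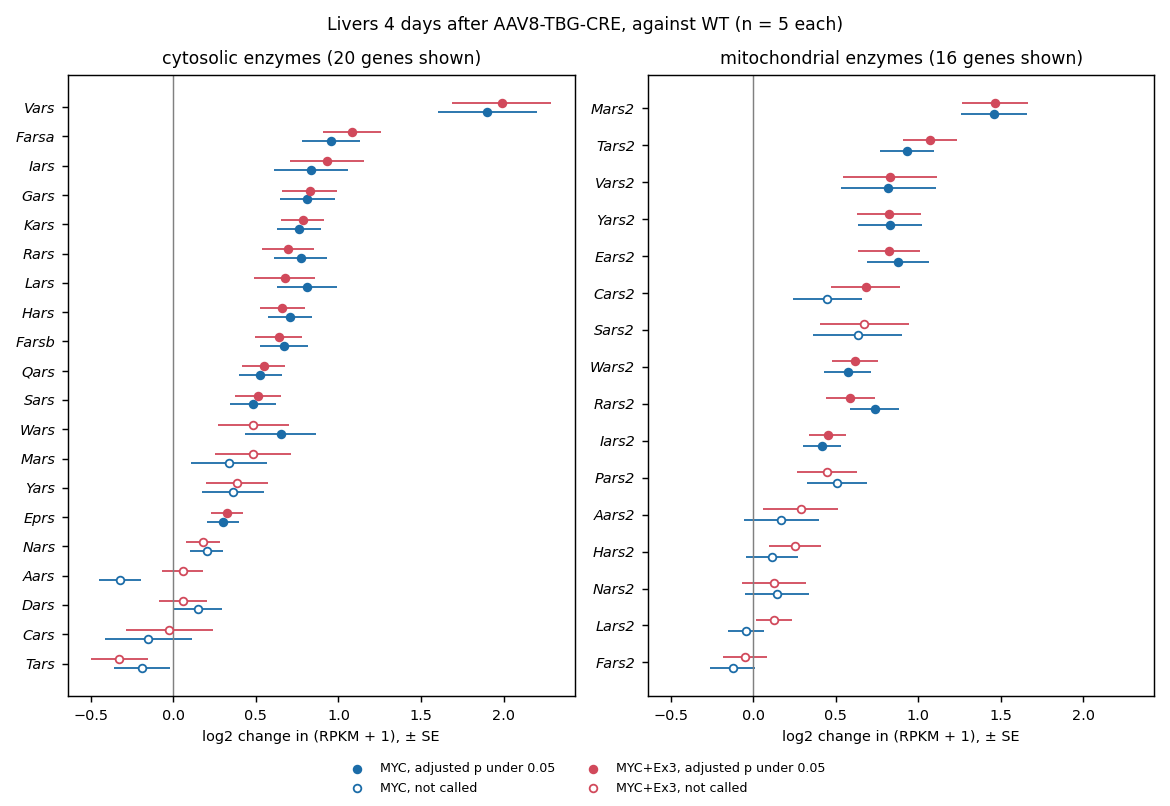
Change in log2(RPKM + 1) of 36 of the 37 synthetase genes in MYC (blue) and MYC+Ex3 (red) livers against WT livers (n = 5 each), with bars of 1 SE; left, cytosolic, right, mitochondrial genes, ordered by the MYC+Ex3 value. Filled points passed a limma adjusted p of 0.05, and Vars (1.90 and 1.99) and Mars2 (1.46 and 1.47) lie farthest to the right while Tars lies left of 0 in both.

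**Figure D3:**
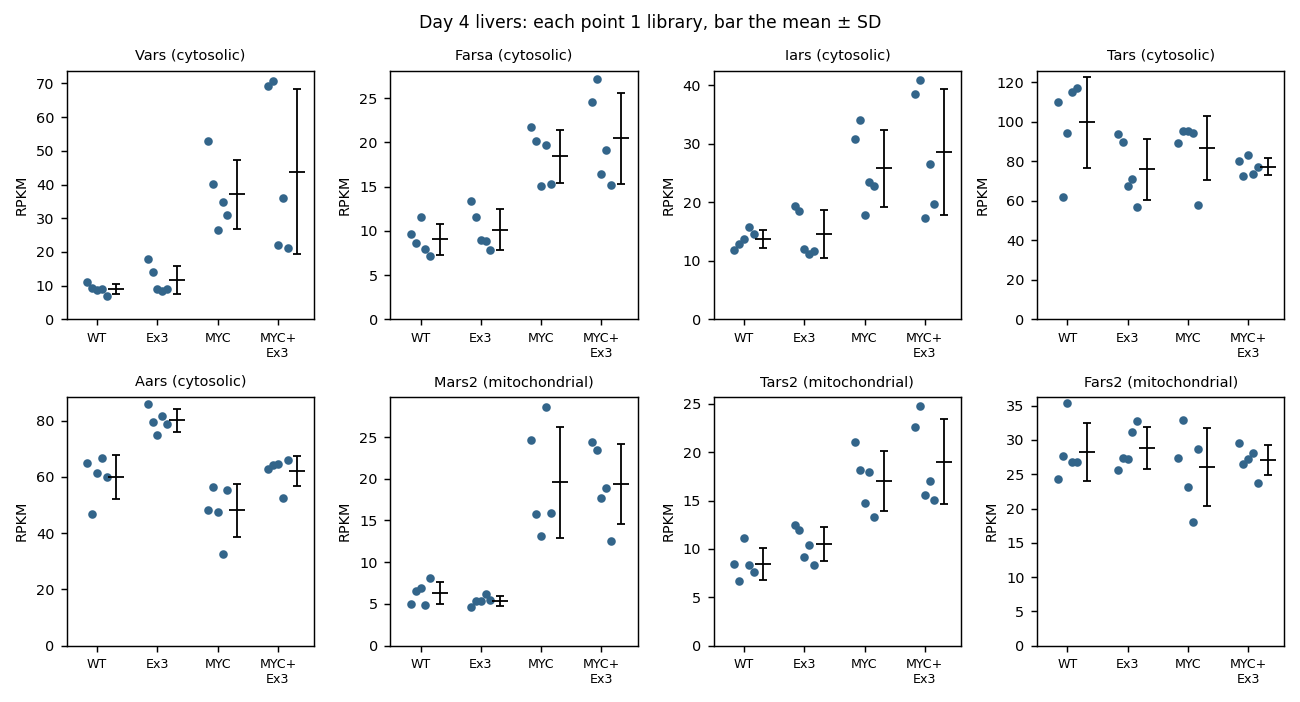
RPKM in every day 4 liver for the 3 cytosolic genes with the largest change in MYC+Ex3 livers and 2 mitochondrial genes among the 3 with the largest, the gene with the lowest change in each class, and Aars; each point is 1 library and the bar is the mean ± SD (n = 5). Vars, Farsa, Iars, Mars2 and Tars2 show MYC and MYC+Ex3 points above all WT points, Tars and Fars2 overlap throughout, and Aars is highest in Ex3 livers (74.8 to 85.8 RPKM).

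Counting members whose libraries did not overlap with WT gave 7 cytosolic and 4 mitochondrial genes in MYC livers, all higher, where 10.9% of all genes were in that position and 2.4% in the opposite one. In MYC+Ex3 livers it gave 10 and 6, all higher, where 13.5% of all genes were and 3.7% in the opposite one. The authors' deposited table calls 18 members higher and 1 lower (Aars) in MYC livers, and 22 higher and 1 lower (Tars) in MYC+Ex3 livers. The MYC count rested partly on which libraries entered. With the 4 keratin-free MYC and 2 keratin-free WT livers alone, 10 members were called higher in place of 22 (Farsa, Farsb, Gars, Iars, Kars, Mars2, Rars, Rars2, Tars2 and Vars), and over all genes 1249 were called in place of 3047. There the cytosolic median was 0.35 and the mitochondrial median 0.45. With the keratin split as a term in the fit of all 20 livers, 23 were higher and 1, Aars, lower, with 3587 calls over all genes. The keratin-bearing libraries hold only 1 MYC liver, so no value was computed within them for that comparison. In MYC+Ex3 livers 18 members were called within keratin-free and 16 within keratin-bearing libraries, in place of 22, with 3009 and 2453 calls over all genes in place of 3301. Over all alternative settings and all fits that left out 1 library, 7 cytosolic and 3 mitochondrial members kept their call in MYC livers (the 10 just named), and 5 and 4 in MYC+Ex3 livers (among them Farsa, Hars, Kars, Rars, Vars, Ears2, Mars2 and Tars2). The calls of Vars2 and Wars in MYC livers were each lost in 4 of 9 alternative settings, with adjusted p up to 0.201 and 0.385 by limma.

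Adding Ex3 to MYC made no difference to these genes that the test could call in 4 days. Of 37 members 0 were called between MYC+Ex3 and MYC livers, where 0.19% of all genes were. The median difference was 0.02 for cytosolic and 0.04 for mitochondrial members, and single members ran from -0.16 to 0.38. Aars was at the top of that range (0.38 ± 0.126, limma adjusted p = 0.811) and the only member with an unadjusted p under 0.05 (0.00675), where 3.37% of all genes had one. For Vars the difference was 0.09 ± 0.3 and for Mars2 0.01 ± 0.2. The groups were unlike in keratin, as 1 of 5 MYC and 3 of 5 MYC+Ex3 libraries carried its reads. Among keratin-free libraries Vars was at 69.3 and 70.6 RPKM in MYC+Ex3 (n = 2) and 26.4 to 52.9 in MYC livers (n = 4). Iars, Farsa and Tars2 were also higher without overlap in that MYC+Ex3 set, while Mars2 overlapped (23.4 to 24.4 against 13.1 to 24.6 RPKM). Refits with a keratin term or within keratin-free libraries alone called no member either. The interaction of MYC with Ex3 was called for 0 members and 0% of all genes. No member had an unadjusted p under 0.05 there, where 0.964% of all genes did. Against Ex3 livers, MYC+Ex3 livers had 22 members higher and 1 lower, where 16.4% of all genes were called higher and 4.7% lower (14.2% and 6.95% after rescaling). That comparison uses other control livers, but shares its MYC+Ex3 livers with those above. The largest changes in it were in Vars (1.68 ± 0.3) and Mars2 (1.65 ± 0.2).

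Aars was the 1 lower member in that comparison, falling by 0.37 ± 0.126 (limma adjusted p = 0.0443), and its libraries did not overlap. It was the 1 member lower without overlap, where 5.02% of all genes were in that position, beside 20 members higher without overlap, where 15.2% were. Its RPKM was 48.4, 56.5, 47.5, 32.7 and 55.5 in MYC livers and 63, 64.1, 64.5, 52.6 and 66.1 in MYC+Ex3 livers, beside the 74.8 to 85.8 of Ex3 and the 46.7 to 66.6 of WT livers. Ex3 livers lay above the other 3 groups, MYC livers overlapped both WT and MYC+Ex3 livers, and MYC+Ex3 livers lay within the WT range. The call against Ex3 was lost in 4 of 10 alternative settings (limma adjusted p up to 0.134) and in 13 of 20 fits that left out 1 library. In MYC against WT livers the change was -0.32 ± 0.126, with a limma adjusted p of 0.0701. It passed the threshold after rescaling each library by median ratios (-0.43, limma adjusted p = 0.0144), and also with library weights or a keratin term. The exons of Aars overlap those of Exosc6 on the same strand in GENCODE M21, so reads in that stretch may belong to either gene.

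Synthetase genes of both compartments were also higher in the tumours. Against 4-OHT WT livers, 29 members were higher and 1 lower in MYC tumours, 17 of 20 cytosolic and 12 of 17 mitochondrial being higher, where 36.2% of all genes were called higher and 13.7% lower. In MYC+Ex3 tumours 29 were higher and 0 lower, with the same 17 and 12 by class, where 42.3% of all genes were called higher and 18.4% lower. The median change in MYC tumours was 0.72 for cytosolic and 0.81 for mitochondrial members, beside 0.19 for all genes. In MYC+Ex3 tumours it was 0.90 and 0.79, beside 0.23. These tests were adjusted over the 11854 genes tested in this arm, and both comparisons share the 7 control livers. Adding 1 to each RPKM shrinks the changes of low genes more. The mitochondrial class was the lower one, at 3.11 beside 7.64 RPKM in 4-OHT WT livers. The class medians were not tested against each other, and their order may depend on this scale. Without Gars and Kars the cytosolic medians were 0.68 in MYC and 0.85 in MYC+Ex3 tumours. Since the median of all genes was itself above 0, the libraries were also rescaled by median ratios. Then 25 members were higher and 1 lower in MYC tumours, beside 27.1% and 23.3% of all genes, with class medians of 0.53 and 0.65. In MYC+Ex3 tumours 27 were higher and 1 lower (Aars), beside 33.9% and 27.1% of all genes, with class medians of 0.70 and 0.63. The members not called in MYC tumours were Cars, Tars, Aars2, Cars2, Fars2, Lars2 and Nars2, and those not called in MYC+Ex3 tumours were Aars, Cars, Tars, Aars2, Cars2, Fars2, Hars2 and Nars2.

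The median over the 20 cytosolic genes was 7.64 ± 1.02 RPKM in 4-OHT WT livers (SD, n = 7), 13.8 ± 2.08 in MYC tumours and 15.1 ± 1.68 in MYC+Ex3 tumours (SD, n = 3 each). Over the 17 mitochondrial genes it was 3.11 ± 0.586, 6.1 ± 1.45 and 6.16 ± 0.552 RPKM. For both classes the lowest tumour (11.5 and 4.51 RPKM) was above the highest 4-OHT WT liver (9.04 and 4.18 RPKM). In both tumour groups the cytosolic gene of all 17 pairs had the higher mean RPKM. Members whose libraries did not overlap with the 4-OHT WT livers numbered 26 higher and 1 lower in MYC tumours, where 26.3% and 8.89% of all genes were in those positions. In MYC+Ex3 tumours they numbered 29, all higher, where 38.2% of all genes were and 17.8% in the opposite position.

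Vars was again at the top of the cytosolic genes. Its RPKM ran from 4.58 to 7.25 in 4-OHT WT livers (median 5.75, n = 7), and was 16.1, 15 and 20.1 in MYC tumours and 16.1, 17.8 and 24.4 in MYC+Ex3 tumours. All 6 tumours lay above all 7 WT livers, with changes of 1.39 ± 0.16 and 1.56 ± 0.16 (limma adjusted p = 1.67e-05 and 2.48e-06). Gars, whose single gene supplies the glycyl enzyme of both compartments, ran from 5.89 to 8.65 RPKM in 4-OHT WT livers (median 6.85), and was 14, 13.6 and 16.1 in MYC tumours and 15.8, 17.7 and 19 in MYC+Ex3 tumours. The groups were apart, with changes of 0.96 ± 0.111 and 1.21 ± 0.111. Iars ran from 3.4 to 5.82 RPKM in 4-OHT WT livers (median 4.78), and was 11.3, 9.01 and 12.7 in MYC tumours and 11.5, 11.8 and 13 in MYC+Ex3 tumours. Its changes were 1.06 ± 0.137 and 1.19 ± 0.137, again with no overlap. Tars ran from 12.2 to 24.9 RPKM in 4-OHT WT livers (median 17.2), and was 21.7, 12.6 and 17.3 in MYC tumours and 13.9, 16 and 17.5 in MYC+Ex3 tumours. All tumours lay within the WT range of Tars, and the changes were -0.08 ± 0.206 and -0.16 ± 0.206, not called by limma. The authors' deposited table calls Tars lower in MYC+Ex3 tumours, with a log2 fold change of -0.41 and an adjusted p of 0.0281. It does not call Tars in MYC tumours (-0.28, adjusted p = 0.295).

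Mars2 led the mitochondrial genes here too. It ran from 1.1 to 2.22 RPKM in 4-OHT WT livers (median 1.64), and was 4.58, 4.14 and 10.3 in MYC tumours and 7.91, 6.38 and 9.18 in MYC+Ex3 tumours. The highest MYC tumour (10.3 RPKM) lay above all MYC+Ex3 tumours, and the other MYC tumours lay below all of them. The changes of Mars2 were 1.4 ± 0.213 and 1.75 ± 0.213 (limma adjusted p = 0.000134 and 1.04e-05). Yars2, the mitochondrial tyrosyl enzyme gene, ran from 1.99 to 3.76 RPKM in 4-OHT WT livers (median 2.45), and was 7.31, 5.17 and 8 in MYC tumours and 6.3, 6.86 and 6.88 in MYC+Ex3 tumours. Every tumour exceeded every WT liver, with changes of 1.14 ± 0.147 and 1.13 ± 0.147. Nars2, the mitochondrial asparaginyl enzyme gene, ran from 2.2 to 4.78 RPKM in 4-OHT WT livers (median 3), and was 3.26, 2.96 and 4.11 in MYC tumours and 3.47, 3.06 and 4.45 in MYC+Ex3 tumours. Its tumours lay within the WT range, and its changes of 0.10 ± 0.176 and 0.17 ± 0.176 were the smallest of the mitochondrial class in both comparisons.

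**Figure D4:**
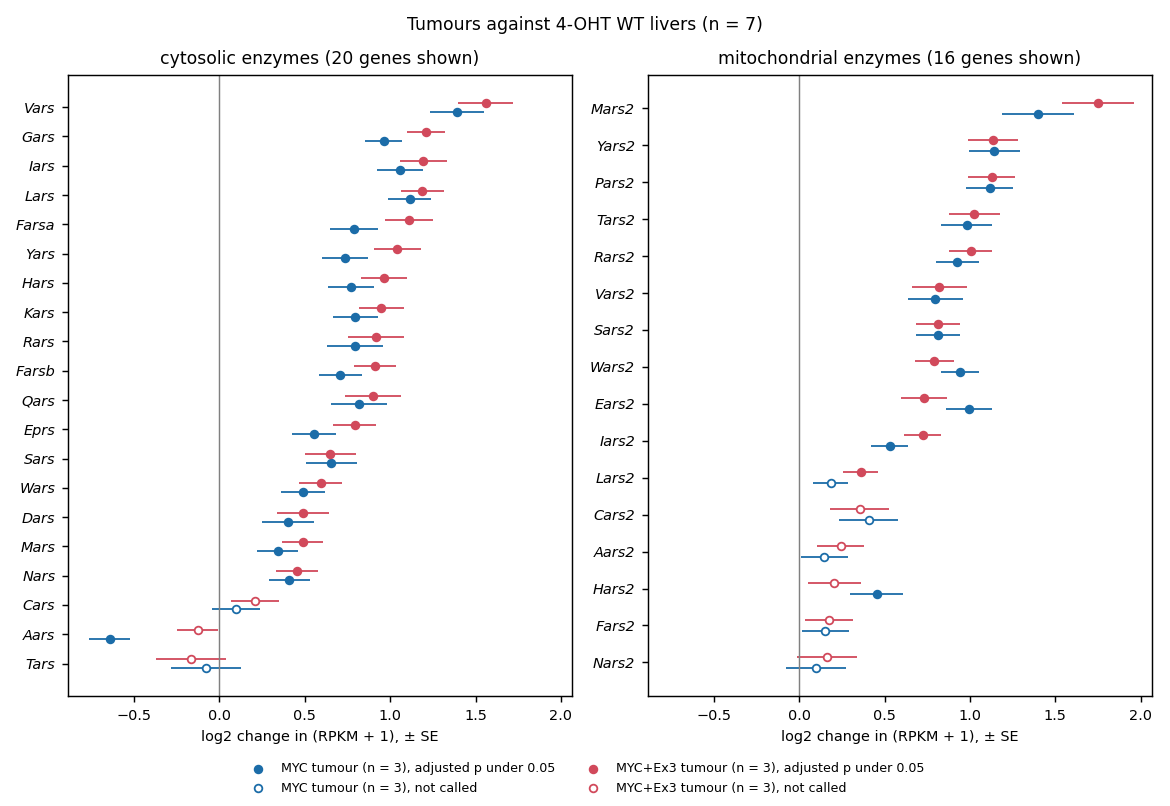
Change in log2(RPKM + 1) of 36 of the 37 synthetase genes in MYC (blue, n = 3) and MYC+Ex3 tumours (red, n = 3) against 4-OHT WT livers (n = 7), with bars of 1 SE; left, cytosolic, right, mitochondrial genes, ordered by the MYC+Ex3 value. Most points are filled (limma adjusted p under 0.05) and right of 0, and Aars stands left of 0 at -0.64 in MYC tumours and -0.13 in MYC+Ex3 tumours.

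**Figure D5:**
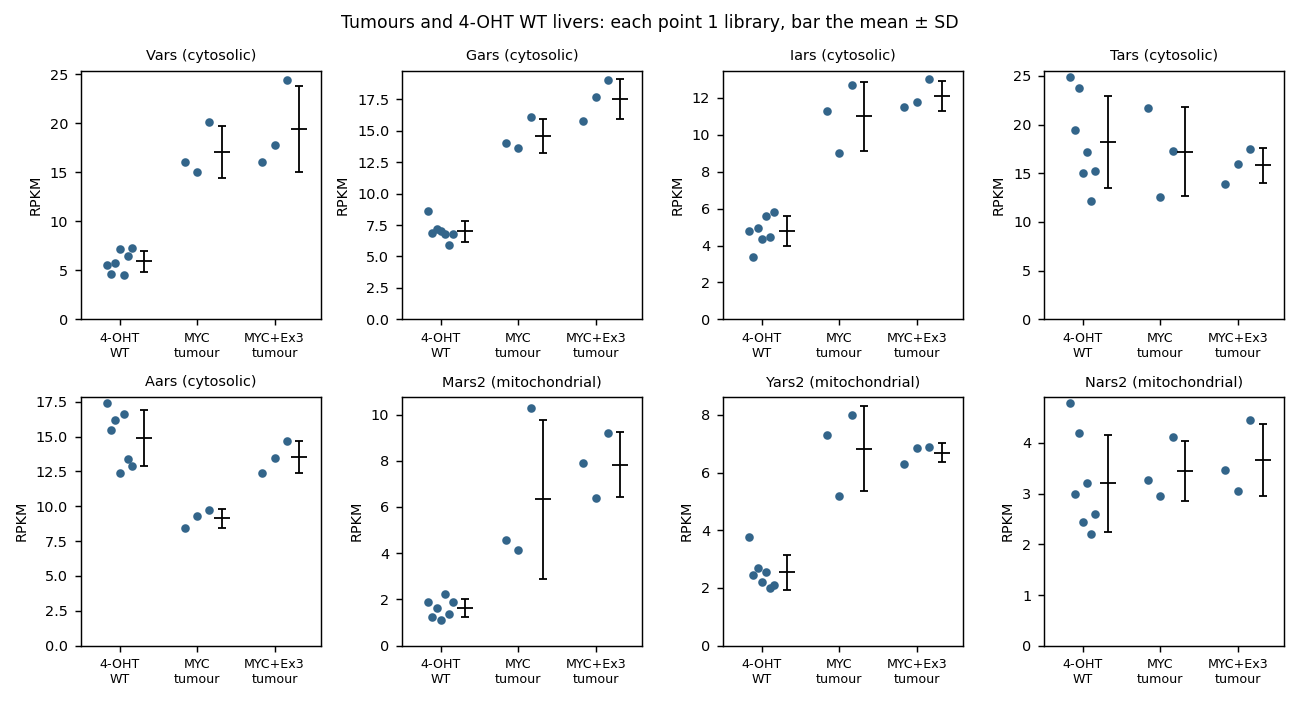
RPKM in every 4-OHT WT liver (n = 7) and tumour (n = 3 per group) for the 3 cytosolic genes with the largest change in MYC+Ex3 tumours and 2 mitochondrial genes among the 3 with the largest, the gene with the lowest change in each class, and Aars; each point is 1 library and the bar is the mean ± SD. Vars, Gars, Iars, Mars2 and Yars2 show all tumours above all livers, Tars and Nars2 overlap, and Aars is lowest in MYC tumours (8.42 to 9.75 RPKM).

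Aars was the 1 member that was lower in MYC tumours. It ran from 12.4 to 17.4 RPKM in 4-OHT WT livers (median 15.5), and was 8.42, 9.27 and 9.75 in MYC tumours and 12.4, 13.5 and 14.7 in MYC+Ex3 tumours. The MYC tumours lay below all other libraries of the arm, with a change of -0.64 ± 0.12 against 4-OHT WT livers (limma adjusted p = 0.000645). That call held in all 9 alternative settings and all 13 fits that left out 1 library. In MYC+Ex3 tumours the change was -0.13 ± 0.12 (limma adjusted p = 0.375), which became -0.34 and passed the threshold after median-ratio rescaling (limma adjusted p = 0.00271). The authors' deposited table calls Aars lower in both tumour groups, with log2 fold changes of -0.90 and -0.36.

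Between MYC+Ex3 and MYC tumours 0 of 37 members were called, where 4.13% of all genes were. The median difference was 0.14 for cytosolic and 0.03 for mitochondrial members. Aars differed by 0.51 ± 0.142, with an unadjusted p of 0.00272 and a limma adjusted p of 0.0579, and was the only member with an unadjusted p under 0.05, where 17.6% of all genes had one. It passed the threshold after median-ratio rescaling (0.51, limma adjusted p = 0.00889), and the authors' deposited table calls it higher (0.52, adjusted p = 0.00125). Aars and Farsa were the members whose tumour groups did not overlap, both higher with Ex3, where 8.59% of all genes were in that position and 7.71% in the opposite one. Farsa was 7.3, 6.22 and 8.92 RPKM in MYC tumours and 9, 9.15 and 10.5 RPKM in MYC+Ex3 tumours.

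Partner enzymes for the same amino acid in the 2 compartments were close in some pairs and apart in others, and these differences within a pair were not tested. Among close pairs in MYC livers were Rars with Rars2 (0.77 and 0.74), Wars with Wars2 (0.65 and 0.57) and Nars with Nars2 (0.20 and 0.14). In MYC livers the mitochondrial change was the larger one in 9 of 17 pairs, with Mars2 at 1.46 beside Mars at 0.34 and Tars2 at 0.93 beside Tars at -0.19. The cytosolic change was the larger one in 8 pairs, with Vars at 1.90 beside Vars2 at 0.82, Farsa at 0.96 beside Fars2 at -0.13 and Lars at 0.81 beside Lars2 at -0.04. In MYC+Ex3 tumours the mitochondrial change was the larger one in 10 of 17 pairs, again with Mars2 (1.75 beside 0.49) and Tars2 (1.03 beside -0.16). Lars changed by 1.19 there beside 0.36 for Lars2. Adding 1 to each RPKM shrinks the changes of low genes more, and the mitochondrial gene was the lower one in most pairs. The pair counts may therefore depend on this scale. Hars and Hars2, the cytosolic and mitochondrial histidyl enzyme genes, have overlapping exons on opposite strands in GENCODE M21. Hars changed by 0.71 ± 0.135 and Hars2 by 0.11 ± 0.158 in MYC livers. In all, 14 of 37 members have exons that overlap another gene on the opposite strand in that annotation, among them Mars, which overlaps Ddit3. The libraries are strand-specific per the labels' protocols, but whether strand was used in counting is not given in the sources used here.

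In the livers, changes tended to be smaller for the members that were abundant to begin with. The highest RPKM of any gene in a library was only 272 to 340 in WT and 237 to 351 in MYC livers of day 4, and 42.9 to 67.5 in the second arm, and the part of this ceiling in the relation was not tested. Across the 37 members the Spearman correlation between mean RPKM in WT livers and change was -0.47 in MYC and -0.50 in MYC+Ex3 livers, and -0.41 and -0.26 in the tumours. These are descriptions across genes, which share libraries and are not independent, and the level enters both measures. Of the 5 members at 50 RPKM or more in day 4 WT livers (Tars, Nars, Dars, Aars and Eprs) 1, Eprs, rose in MYC livers, against 21 of the 32 below that level. Over all genes the same contrast was 7.29% against 18.4%. In the second arm, 5 of 7 members at 10 RPKM or more rose in MYC tumours, against 24 of 30 below, and 15.2% against 41.1% of all genes.

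By structural class, 13 of 18 class I and 8 of 18 class II enzyme genes rose in MYC livers, and the same numbers in MYC+Ex3 livers. In MYC tumours 15 and 13 rose, and in MYC+Ex3 tumours 16 and 12. These and the next counts stand beside 16.9%, 17.9%, 36.2% and 42.3% of all genes called higher in MYC livers, MYC+Ex3 livers, MYC tumours and MYC+Ex3 tumours. Eprs carries a class I and a class II domain and was counted in neither. The medians in MYC livers were 0.69 for class I and 0.49 for class II, a difference that was not tested. Of the 8 enzymes held in the multisynthetase complex, Eprs, Iars, Lars, Mars, Qars, Kars, Rars and Dars, 6 rose in MYC livers, 6 in MYC+Ex3 livers and 8 in each kind of tumour. All 3 scaffold genes of that complex, Aimp1, Aimp2 and Eef1e1, rose in these 4 comparisons. Eef1e1 averaged 12.7 ± 1.45 RPKM in WT livers, 35.3 ± 16.6 in MYC livers and 30.9 ± 3.18 in MYC+Ex3 livers (SD, n = 5 each), with changes of 1.31 ± 0.192 and 1.22 ± 0.192. Aimp2 averaged 12.9 ± 1.53, 29.7 ± 4.4 and 30.3 ± 5.98 RPKM in the same groups (SD, n = 5 each), with changes of 1.14 ± 0.136 and 1.16 ± 0.136.

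Other genes of tRNA supply were taken from lists that hold none of the 37 members. Of all genes 16.9% were called higher in MYC livers, 17.9% in MYC+Ex3 livers, 36.2% in MYC tumours and 42.3% in MYC+Ex3 tumours. In the same order 5.36%, 6.18%, 13.7% and 18.4% were called lower. Of 3 subunit genes of the mitochondrial glutamyl-tRNA amidotransferase, which makes glutaminyl-tRNA in the organelle, 1 (Qrsl1) rose in MYC livers, 1 in MYC+Ex3 livers, 3 in MYC tumours and 2 in MYC+Ex3 tumours. Of 12 genes for tRNA end processing, editing, export, selenocysteine charging and synthetase-like proteins, 6 rose and 2 fell in MYC livers, 6 rose and 1 fell in MYC+Ex3 livers, 9 rose and 0 fell in MYC tumours, and 9 rose and 1 fell in MYC+Ex3 tumours. Elac2, a tRNA 3' end nuclease, rose by 1.20 ± 0.244 in MYC livers. Dtd1, a deacylase that removes D-amino acids from tRNA, rose by 1.17 ± 0.199 in MYC livers and 1.41 ± 0.162 in MYC tumours. Of 23 genes for RNA polymerase III and its factors, which transcribe tRNA genes, 9 rose in MYC livers, 10 in MYC+Ex3 livers, 19 in MYC tumours and 21 in MYC+Ex3 tumours, and none fell. Their median change was 0.30, 0.40, 0.64 and 0.77 in that order. Of 4 mitochondrial elongation factor genes 2, 3, 3 and 2 rose in the same order, and of 5 cytosolic ones 3 rose in each.

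The amino acid stress response was examined because ATF4, its transcription factor, is known to act on several cytosolic synthetase genes. Of 20 listed genes 6 rose and 1 fell in MYC livers, and 6 rose and 2 fell in MYC+Ex3 livers. Of the 18 tested in the second arm, 7 rose and 0 fell in MYC tumours, and 9 rose and 2 fell in MYC+Ex3 tumours. The shares of all genes called higher were 16.9%, 17.9%, 36.2% and 42.3% in the same order, so that the counts of this list in the tumours were near the background. Those with the largest rises were the serine synthesis genes Psat1 and Phgdh and, in the tumours, the asparagine synthetase gene Asns. Phgdh averaged 1.13 ± 0.495 RPKM in WT and 13 ± 8.85 RPKM in MYC livers (SD, n = 5 each), and 0.256 ± 0.0916 RPKM in 4-OHT WT livers (SD, n = 7) and 25.1 ± 4.18 RPKM in MYC tumours (SD, n = 3). Asns rose by 3.89 ± 0.202 in MYC tumours, from 0.528 ± 0.506 RPKM (SD, n = 7) to 20.9 ± 2.94 RPKM (SD, n = 3). In MYC livers its change of 1.11 ± 0.669 was not called (limma adjusted p = 0.253). Atf4 transcript itself, named here after its values were seen, changed by -0.07 ± 0.102 in MYC livers and by 0.21 ± 0.152 in MYC tumours, neither called (limma adjusted p = 0.671 and 0.274), and rose by 0.37 ± 0.152 in MYC+Ex3 tumours (limma adjusted p = 0.0468). Chac1, a glutathione-degrading enzyme gene of the same list, fell by 1.89 in MYC+Ex3 livers and by 0.86 in MYC+Ex3 tumours.

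Markers of other cells moved with some of these results, and their part in them was not tested. In bulk samples fewer cells of a type and less RNA per cell cannot be told apart. The marker counts stand beside the shares of all genes called. Those higher were 16.9% in MYC livers, 17.9% in MYC+Ex3 livers, 36.2% in MYC tumours and 42.3% in MYC+Ex3 tumours. Those lower were 5.36%, 6.18%, 13.7% and 18.4% in the same order. All 10 listed proliferation genes rose in MYC livers, MYC+Ex3 livers and both tumour groups, with summed RPKM of 58.2 to 76.9 in WT, 277 to 581 in MYC and 351 to 547 in MYC+Ex3 livers. In Ex3 livers the sum was 67.7 to 195. In the tumours it was 95.1 to 188, against 30.2 to 54.6 in 4-OHT WT livers. Of 7 macrophage markers 6 fell in MYC tumours and 5 in MYC+Ex3 tumours, with sums of 26.6 to 109 and 47.9 to 59.1 RPKM against 104 to 140 in 4-OHT WT livers. Of 6 endothelial markers 4 fell in each kind of tumour, with sums of 23.3 to 37.3 and 25 to 29.7 RPKM against 40.5 to 68.1. The 7 hepatocyte markers were detected in all groups, and all 7 had a negative change in MYC and MYC+Ex3 livers and in both tumour groups. Of these, 1 was called lower in MYC+Ex3 livers and 3 in MYC+Ex3 tumours. Their sums were 1240 to 1460 RPKM in WT, 1050 to 1470 in MYC and 952 to 1520 in MYC+Ex3 livers, and the medians of the second arm were 268 in 4-OHT WT livers, 196 in MYC tumours and 224 in MYC+Ex3 tumours. The highest RPKM of any gene was only 272 to 340 in day 4 WT livers. The part of this ceiling in the hepatocyte marker changes was not tested. Of 7 stellate and fibroblast markers 2 rose in MYC livers, 1 rose and 2 fell in MYC+Ex3 livers, 4 rose and 2 fell in MYC tumours, and 2 rose and 3 fell in MYC+Ex3 tumours. Of the 3 lymphocyte markers tested in the second arm, 3 fell in MYC+Ex3 tumours and 0 in MYC tumours. The 4 erythroid markers rose in MYC+Ex3 tumours, with a sum of 64 to 79.1 RPKM against 13.2 to 30.6 in 4-OHT WT livers. In the day 4 livers the macrophage sums overlapped between WT (224 to 424) and MYC livers (292 to 465).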

How the data were processed

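The values are RPKM per gene that the authors deposited for 33 mouse libraries, with their own log2 fold changes and adjusted p-values, which are also deposited and are printed only where the authors' table is named. The submitters' processing notes list TopHat2 2.0.8, TopHat, SAMtools, featureCounts 1.4.5-p1, DESeq2 and build mm9, with no order. Whether strand was used in counting is not given in the sources used here. RPKM steps gave whole reads for 20485 genes (100% of those above 0, tolerance 1e-05), which gave the depth and the reads behind a member. They also set the simulated data and did not enter the fits of the real libraries.

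Each arm was fitted alone with limma 3.58.1 in R 4.3.3 (trend, two-sided, no covariates) on log2(RPKM + 1), for genes with RPKM of at least 1 in at least 3 libraries, with Benjamini-Hochberg adjustment over all genes tested and a threshold of 0.05. A fold on this scale understates the change of low genes. The method was also run on simulated data, and the outcome of that run is not given here. Descriptions used Python 3.11.15, pandas 2.3.3, numpy 2.4.6 and scipy 1.17.1. RPKM hide the counting error of a gene, and reads of members that overlap another gene on the genome may be shared. The samples have no numbers that tie them across groups.

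The members and lists were chosen with earlier results of these data known. Values in every library are given, per arm and class, for the 3 members with the highest and the 1 with the lowest change in MYC+Ex3 samples against WT. One member is counted in all totals but its own values are not reported here. From other lists the 2 called genes with the largest rise or fall could be named. Aars and Atf4 were named after their values were seen. Alternatives were another pseudocount (0.1), no filter or one at RPKM 5, median-ratio rescaling, library weights, a sex covariate, the compared groups alone, a keratin term, keratin-free or keratin-bearing libraries alone, 4-OHT livers of 1 ID series alone, and leaving out each library.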

Additional observations from a re-analysis of the deposited data

Results flagged for a closer look

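Of 55 groups of values tested for a library far from the others, 3 had one, and chance marks about 1 group in 20. Tars in MYC livers had its lowest value in replicate 5 (58.1 RPKM), where the nearest other liver was at 89.4 and the highest at 95.5 RPKM. Aars in MYC+Ex3 livers had its lowest value in replicate 4 (52.6 RPKM), against 63 to 66.1 RPKM in the other 4. Yars2 in 4-OHT WT livers had its highest value in replicate 1 (3.76 RPKM), where the nearest other liver was at 2.7 and the lowest at 1.99 RPKM.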

How the results depend on the processing

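Counts of called members kept their size, within 1.5 times, in 237 of 240 refits. The exceptions were MYC against WT livers within keratin-free libraries, with 10 in place of 22, and MYC+Ex3 against MYC tumours, with 1 (Aars) in place of 0 after median-ratio rescaling and 1 (Mars2, limma adjusted p = 0.0409) without MYC tumour replicate 3. Leaving out 1 library at a time gave 18 to 24 members in MYC and 20 to 24 in MYC+Ex3 livers against WT, and 19 to 23 in MYC+Ex3 against Ex3 livers. It gave 25 to 31 in MYC and 28 to 30 in MYC+Ex3 tumours against 4-OHT WT livers, and 0 to 1 between the tumour groups. It gave 0 to 0 for Ex3 against WT, for MYC+Ex3 against MYC livers and for the interaction. Over all genes, library weights gave 6416 in place of 3301 calls in MYC+Ex3 against WT livers, and 6707 in place of 2893 against Ex3 livers. No called member changed direction in any alternative. No paired analysis was possible because replicate numbers were given in accession order and tie no samples across groups. With 5 or 3 samples a group and 39 to 88 reads behind the lowest member, small changes of low genes could not be detected.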
